A study of Homo sapiens with 8 samples.

Results

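The genes IER2, IER3 and IER5 share the symbol of immediate-early response genes, and their mRNAs were followed through a pulse and chase of 4-thiouridine (4sU) in THP-1, an established human monocytic leukaemia line. They were taken by name with their values in these data known, and the segment measured for each was chosen by its reads, as the deposited 3′ UTR segment of that gene with the largest read sum over all 8 libraries (6270 reads for IER2, 4059 for IER3 and 6428 for IER5). The levels and half-lives of the members are therefore a description, and each test is read beside the share of all genes it called. That makes 3 of 15380 genes with a read, and no minimum on expression was used to choose them. In SLAM-seq, 4sU taken up by the cells enters new RNA and is later read as T-to-C changes, so reads with such changes, called labelled here, come from RNA made while 4sU was at hand. One library came from THP-1 cells that received no 4sU, and 7 came from THP-1 cells given 30 uM 4sU for 12 h with fresh medium every 3 h, washed in cold buffer and moved to medium with 3 mM uridine for 0, 20 or 40 min or 1, 2, 8 or 12 h. Each condition had 1 library, all from the same unmodified line, and whether the cells without 4sU were also washed and given uridine is not stated in the labels.

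Immediate-early genes are transcribed within minutes of a stimulus from factors already present in the cell, and many of their mRNAs are short-lived, so that their level follows transcription closely. IER2 and IER5 encode related nuclear proteins, and IER5 is known for bringing the phosphatase PP2A to the heat shock factor HSF1. IER3, also called IEX-1, encodes a small membrane-associated glycoprotein of a different kind, is a target of NF-kB, and acts on ERK signalling and on cell survival. AU-rich elements in a 3′ UTR, in which the pentamer ATTTA recurs, are bound by proteins such as ZFP36 that recruit deadenylases.

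The 3′ ends of the members differed in this element, and the sites are shown because the labelled share was measured on these 3′ UTRs. The measured segments begin on hg19 at position 13264673 of chromosome 19 for IER2 (plus strand), 30710976 of chromosome 6 for IER3 (minus) and 181059023 of chromosome 1 for IER5 (plus). In GENCODE 29, whose transcripts lie on GRCh38 and were matched by transcript identifier, the 3′ UTR is 1050 bases long in IER2, 903 in IER3 and 3013 in IER5. ATTTA was searched on the transcript strand. It was found 6 times in IER3, 10 times in IER5 and not at all in IER2. In the last 700 bases there were 6 in IER3 and 4 in IER5, and 72.4% of the 9502 measured 3′ UTRs of at least that length held 1 or more there. The longer TATTTAT, which contains the pentamer, occurred 4 times in that window of IER3 and 3 times in that of IER5, and 21.0% of windows held it. At least as many TATTTAT were found in 0.295% of windows for IER3 and in 0.947% for IER5, whose 3 copies overlap within a single stretch. Capitals mark the pentamers in the 4 IER3 stretches that hold 5 of its 6 copies and in the IER5 stretch where 4 copies overlap end to end, with positions counted from the first base after the stop codon.
IER3 bases 394 to 422: agagcgtcgttaATTTAtttcttattgct
IER3 bases 426 to 454: aattaatATTTAtatgtATTTAtgtacgt
IER3 bases 473 to 501: tgtgtacgtaatATTTAttttaacttatg
IER3 bases 536 to 564: aggtctcttggtATTTAttgagctttgtg
IER5 bases 2563 to 2591: tcctttATTTATTTATTTATTTAattata

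**Figure D1:**
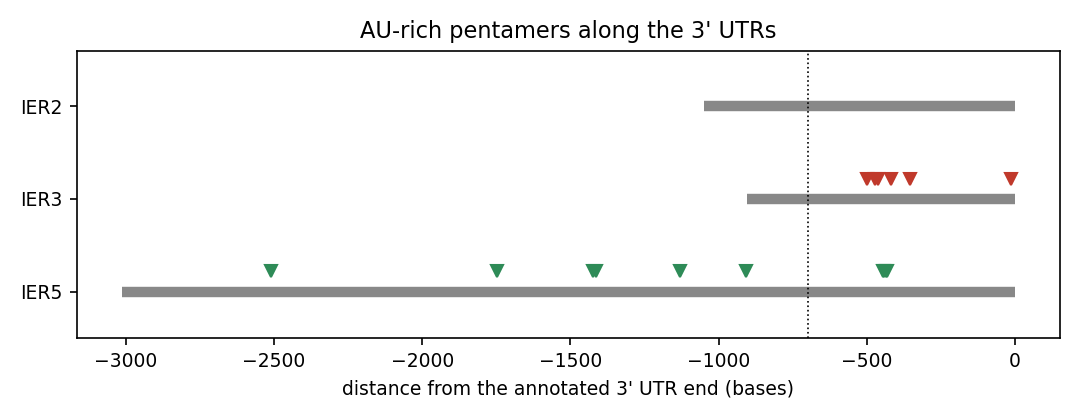
ATTTA pentamers (triangles) along the annotated 3′ UTRs (grey bars) of IER2, IER3 and IER5, with the distance in bases from the annotated 3′ end on the horizontal axis and the last 700 bases to the right of the dotted line. IER2 has none, the 6 of IER3 all lie within that window, and 4 of the 10 in IER5 do.

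The RefSeq promoter set used here held IER2 and IER5. It held none for IER3, which is missing for that reason although its total rose late in the chase. The 250 bases before each start are shown because total reads of both genes rose in the first 2 h after the wash. Motifs were chosen after the sequences were seen and were searched on both strands, and no matches overlap. They are letters in a window and not bound sites. IER2 had 1 match to TGACG, the core of a cAMP response element, which 21.2% of all 35116 promoters held in the same 250 bases. IER5 had 2 matches to CCAAT, the core bound by the factor NF-Y, which 32.0% held. It had 1 match to TATATAA, a form of the TATA box, which 2.42% held. It also had 1 match to GAANNTTC, the core of a heat shock element, which 5.78% held. Each of the genes had 1 match to CCGGAA, a core of ETS factor sites, which 14.5% held. A CArG box, bound by serum response factor, was in neither window and in 1.16% of promoters. Capitals mark the matches, which read as the reverse complement where they lie on the minus strand.
IER2, GRCh38.p14 chr19:13150161-13150410, plus strand: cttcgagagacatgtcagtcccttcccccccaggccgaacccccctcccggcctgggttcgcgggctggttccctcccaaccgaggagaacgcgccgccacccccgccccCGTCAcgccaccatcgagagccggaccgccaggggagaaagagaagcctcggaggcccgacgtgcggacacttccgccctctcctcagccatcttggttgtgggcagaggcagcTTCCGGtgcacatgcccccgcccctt
IER5, GRCh38.p14 chr1:181088450-181088699, plus strand: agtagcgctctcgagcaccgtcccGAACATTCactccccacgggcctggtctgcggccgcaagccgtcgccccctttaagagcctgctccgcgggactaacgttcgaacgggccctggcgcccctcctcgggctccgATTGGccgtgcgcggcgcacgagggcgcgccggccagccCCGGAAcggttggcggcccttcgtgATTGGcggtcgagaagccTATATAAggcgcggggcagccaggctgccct

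How fast the labelled share of the members fell was the first question of the chase. At 2 h IER2 kept 36.2%, IER3 17.7% and IER5 39.3% of its 0 h share. At 8 h about 1% or less of the reads of each were labelled. Labelled reads themselves stood at 2 h at 1.03-fold the 0 h level for IER2, 0.829-fold for IER5 and 0.162-fold for IER3. At the end of the pulse 70.8% of IER5 reads were labelled (95% exact binomial interval 66.5 to 74.8), against 46.6% for IER2 (41.5 to 51.7) and 41.6% for IER3 (35.4 to 48.1). The median of 9027 genes with enough reads was 45.9%, and 368 of them lay above IER5. Intervals of shares, levels and folds, here and below, cover counting error only, as each condition had 1 library. Reads carried no molecular identifiers. Intervals of half-lives and their ratios are widened where scatter about the fit exceeded binomial error. In the last 700 bases of the 3′ UTR, T made up 34.0% of bases in IER5, 27.7% in IER2 and 24.7% in IER3 (median of all windows 31.3%), and the part of T content in the order of the shares was not tested.

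The labelled share of IER3 was 41.6% at 0 h and, in order of chase time, 33.9, 31.3, 25.6, 7.36 and 0.146%, the last at 8 h (2 of 1370 reads). At 12 h 0 of 1411 reads were labelled, which allows a share of up to 0.213%. At 2 h IER3 kept 17.7% of its 0 h share, where the median gene kept 81.9% and 7 of 9027 genes kept less. The share of IER2 was 46.6% at 0 h and, in the same order, 44.4, 33.8, 31.9, 16.9, 0.352 and 0.790%. The values at 8 and 12 h rest on 3 and 5 labelled reads, and their intervals overlap (0.0726 to 1.02% and 0.257 to 1.83%). The share of IER5 was 70.8% at 0 h and then 65.3, 59.5, 47.2, 27.9, 1.05 and 0.740%. It stayed the highest of the 3 up to 8 h. At 1 h IER2 kept 68.6% and IER5 66.7% of the 0 h share, against a median of 95.5% over the same genes. Without 4sU no read of any member was labelled (0 of 894 for IER2, 0 of 26 for IER3 and 0 of 603 for IER5). A count of 0 there allows shares of up to 0.336%, 11.5% and 0.498%.

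**Figure D2:**
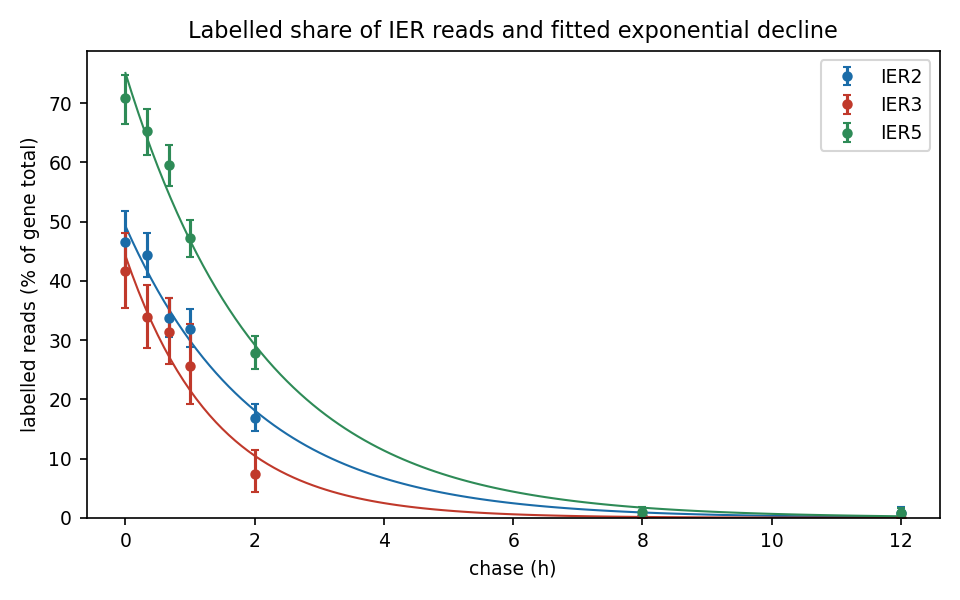
Labelled reads as a percentage of the gene's own reads (vertical axis) against hours of chase (horizontal axis) for IER2, IER3 and IER5, 1 library per point, with 95% exact binomial intervals and the fitted exponential as a line. IER5 starts highest at 70.8%, IER3 is lowest at 2 h with 7.36%, and all 3 lie near 0 at 8 and 12 h.

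With edgeR's quasi-likelihood test of labelled counts over chase time, the gene's own total serving as offset, a decline was called in all 3 members, as in 95.3% of the 9402 genes tested, so the calls themselves do not set the members apart. Over the first 5 libraries alone all 3 were called as well, where 32.3% of genes were. The slope of the labelled share was -1.03 log2 per hour for IER3 (adjusted p = 3.42e-14, edgeR), -0.69 for IER5 (adjusted p = 2.52e-13, edgeR) and -0.67 for IER2 (adjusted p = 4.49e-12, edgeR). Over the 13 alternatives of each, adjusted p ran from 4.22e-37 to 1.81e-08 for IER3, from 5.75e-43 to 4.14e-09 for IER5 and from 7.73e-33 to 7.74e-08 for IER2. These tests measure the scatter of 7 libraries about a line in time, and the labels do not say whether the times came from separate cultures. Fitted as an exponential, the half-life of the labelled share was 0.96 ± 0.11 h for IER3 (SE), 1.39 ± 0.20 h for IER2 and 1.47 ± 0.12 h for IER5. Dispersion about the fit was 1.47 for IER3, 6.52 for IER2 and 4.43 for IER5, above binomial error. The fitted 12 h share of IER2 was 0.124%, below the 0.790% seen. Over all genes, labelled reads made up 30.6, 30.1, 30.7, 30.2, 27.1, 10.8 and 5.53% in order of chase time. That course was nearly flat up to 1 h, which a single exponential from 0 h does not follow. The half-lives, including the median over genes, thus summarise the fall and are not read as decay constants. Of 8831 genes with a resolved half-life (median 2.72 h), 12 had a shorter one than IER3, 133 than IER2 and 200 than IER5. The half-life of IER5 was 1.53 times that of IER3 (95% interval 1.17 to 2.00). That of IER3 was 0.693 times that of IER2 (0.484 to 0.993), an interval that ends just below equality. IER5 and IER2 were next to each other in this order and did not differ beyond their error (ratio 1.06, 0.761 to 1.47). Whether the number of pentamers bears on these half-lives was not tested.

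**Figure D3:**
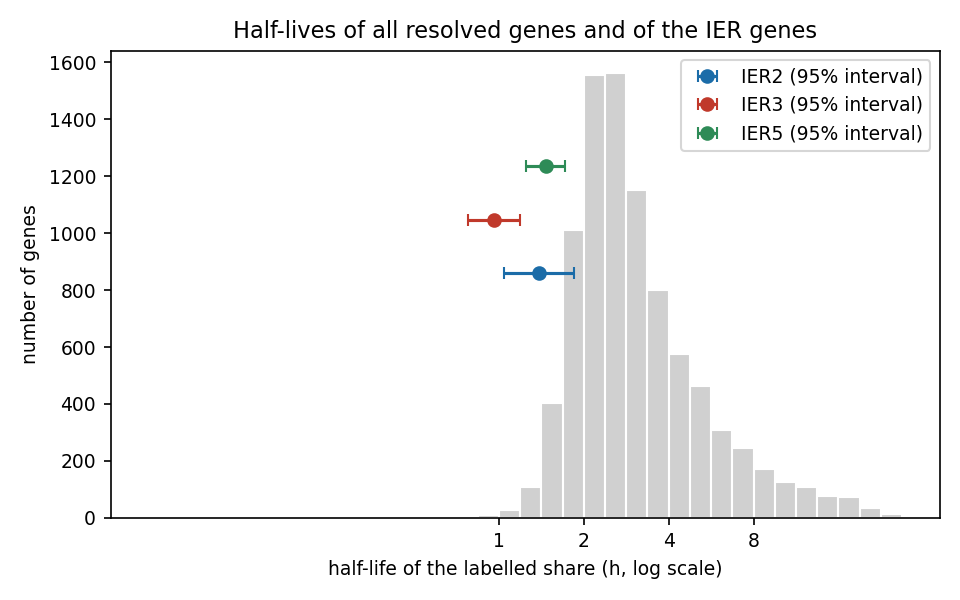
Number of genes (vertical axis) by half-life of the labelled share in hours (horizontal axis, log scale) for 8831 resolved genes (grey bars), with IER2, IER3 and IER5 as points with 95% intervals, whose height has no meaning. The points at 0.96 h, 1.39 h and 1.47 h lie left of the bulk of genes, whose median is 2.72 h.

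Total reads of IER2 and IER5 rose in the first 2 h after the wash, and no rise was called for IER3. Levels are given as CPM, the reads of a gene scaled to the library's sum of gene reads, and are compared within a gene only. In bulk RNA, fewer cells that express a gene and less RNA per cell cannot be told apart. IER2 had 43.6 CPM at 0 h and, in order of chase time, 81.2, 88.1, 93.1, 124, 76.0 and 76.3 CPM. The 0 h library was its lowest of the chase and the 2 h library its highest. IER5 had 54.6 CPM at 0 h and then 69.5, 82.1, 112, 115, 110 and 81.4 CPM. It was lowest at 0 h as well, with its highest values from 1 to 8 h. From 1 h to 2 h IER5 stood at 1.03-fold (0.940 to 1.12), while IER2 was 1.33-fold higher (1.22 to 1.46).

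IER2 was the quickest of the 3 to move. At 20 min its total was 1.86-fold that at 0 h (95% counting interval 1.64 to 2.11), and 12 of the 9295 genes that averaged 50 reads or more had a higher ratio. No member was past 2-fold there, as against 0.0968% of genes. At 40 min it was 2.02-fold (1.79 to 2.29), 1 of 3 members past 2-fold, where 0.269% of genes were at least 2-fold higher. IER5 stood at 1.27-fold at 20 min (1.13 to 1.44) and 1.50-fold at 40 min (1.34 to 1.69). At 2 h IER2 was 2.84-fold (2.53 to 3.20) and IER5 2.11-fold (1.89 to 2.35), 2 of 3 members past 2-fold against 1.52% of genes. The same members were past 2-fold at 1 h (2.13-fold, 1.89 to 2.42, and 2.05-fold, 1.84 to 2.29), where 0.678% of genes were. The intervals of both 1 h calls, of IER2 at 40 min and of IER5 at 2 h span the threshold. IER3 stood at 1.29-fold at 20 min (1.09 to 1.53), 1.05-fold at 40 min (0.879 to 1.25), 0.695-fold at 1 h (0.569 to 0.846) and 0.914-fold at 2 h (0.760 to 1.10). With 1 library per condition these folds have no replicate check.

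A straight line through the first 5 libraries, in which edgeR called a rise in 4.17% of 10528 genes, gave a rise of 0.56 log2 per hour for IER2 (adjusted p = 0.00239, edgeR) and of 0.50 for IER5 (adjusted p = 0.00168, edgeR). For IER3 the same line had a slope of -0.21 log2 per hour and missed the threshold (adjusted p = 0.378, edgeR). Over the full 12 h a single line does not follow the course of IER2 and IER5, whose 12 h levels were 1.75-fold (1.54 to 1.99) and 1.49-fold (1.32 to 1.68) those at 0 h. The line gave log2 changes of -0.23 (adjusted p = 0.593, edgeR) and 0.05 (adjusted p = 0.891, edgeR). In those fits 27.4% of 10643 genes rose and 23.9% fell. From 1 h on, IER2 fell by 0.064 log2 per hour (adjusted p = 0.00865, edgeR), as did 16.1% of 10708 genes. IER5 fell by 0.050 log2 per hour (adjusted p = 0.0125, edgeR). In the first 5 libraries 1.06% of genes fell.

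**Figure D4:**
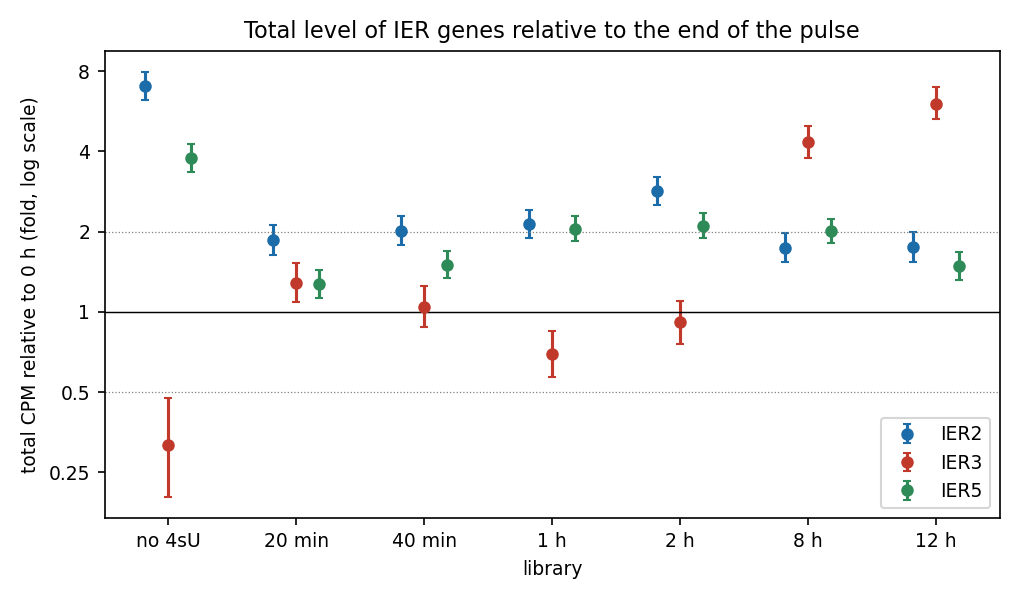
Total CPM of IER2, IER3 and IER5 in each library relative to 0 h (vertical axis, fold on a log scale), with 95% intervals from counting error and dotted lines at 2-fold higher and lower. IER2 and IER5 lie above 1 in every library, whereas IER3 lies at 0.317 without 4sU, at 0.695 at 1 h and at 6.04 at 12 h.

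Labelled reads of IER2 at 20 min, and of IER5 at 1 h, were more abundant than at 0 h. Labelled IER2 reads stood at 20.3 CPM at 0 h and 36.1, 29.8, 29.7 and 20.9 CPM in the next 4 libraries, so at 20 min they were 1.78-fold those at 0 h (1.47 to 2.15). Labelled IER5 reads stood at 38.7 CPM and then at 45.4, 48.8, 52.9 and 32.1 CPM, the highest, at 1 h, being 1.37-fold the first (1.19 to 1.58). At 2 h labelled IER2 stood at 1.03-fold (0.834 to 1.27) and labelled IER5 at 0.829-fold its 0 h level (0.706 to 0.973). Labelled IER3 reads stood at 11.7 CPM and then at 12.3, 9.22, 5.00 and 1.89 CPM. Labelled IER3 reads at 1 h were 0.427-fold those at 0 h (0.293 to 0.611), where IER2 and IER5 stood above 1-fold. The half-life of the share in IER2 and IER5 thus includes unlabelled reads that were added during the chase. That of IER3 does too, as its unlabelled reads were 1.45-fold the 0 h level at 2 h (1.17 to 1.81) and 7.42-fold at 8 h. Fitted to labelled CPM in place of the share, the half-life was 0.83 ± 0.19 h for IER3, 1.86 ± 0.48 h for IER2 and 1.90 ± 0.43 h for IER5.

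Unlabelled reads of IER2 and IER5 were higher in each later library up to 2 h. Those of IER2 went from 23.3 CPM at 0 h to 45.1, 58.4, 63.4 and 103 CPM (4.42-fold, 3.80 to 5.17). Those of IER5 went from 16.0 CPM to 24.2, 33.2, 59.2 and 83.0 at the same times (5.20-fold, 4.34 to 6.28). Unlabelled IER3 reads stood at 16.4, 23.9, 20.2, 14.5 and 23.8 CPM, with no steady direction and 1.45-fold at 2 h (1.17 to 1.81).

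**Figure D5:**
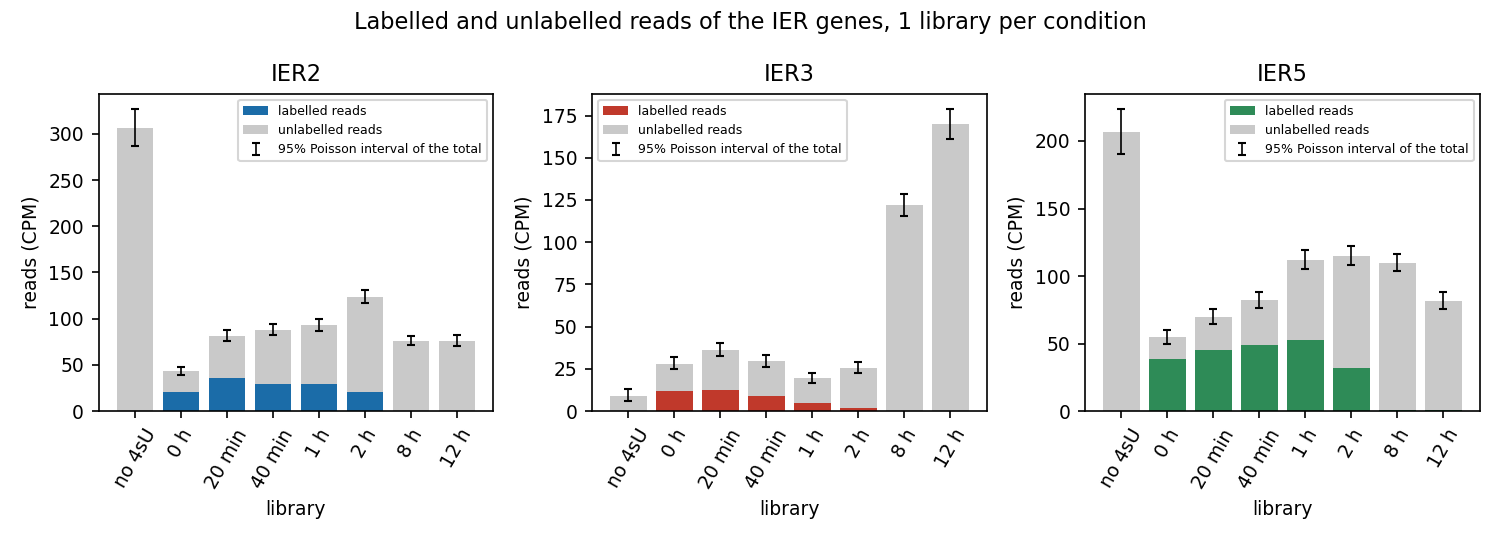
Labelled (coloured) and unlabelled (grey) reads of IER2, IER3 and IER5 in CPM (vertical axis, from 0) in each of the 8 libraries (horizontal axis), with 95% Poisson intervals of the total. IER2 and IER5 are highest without 4sU, at 307 and 207 CPM. IER3 is highest at 12 h with 170 CPM, all of it unlabelled.

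Late in the chase IER3 parted from the other members. It had 28.1 CPM at 0 h and then 36.2, 29.4, 19.5, 25.7, 122 and 170 CPM. The 8 h and 12 h libraries stood above all 5 earlier ones. At 8 h IER3 was 4.34-fold (3.79 to 4.99) and IER5 2.01-fold (1.81 to 2.24) its 0 h level. That put 2 of 3 members past 2-fold against 8.02% of genes, but IER5 only just, with an interval that spans the threshold. At 12 h IER3 alone was past it, at 6.04-fold, against 8.7%. The 8 h level was 4.75-fold the 2 h level (4.13 to 5.48), and 5 of 9295 genes had a higher ratio, with 4.42% at least 2-fold higher. From 8 h to 12 h it was 1.39-fold higher again (1.29 to 1.50). Of the 1370 reads at 8 h, 1368 were unlabelled. Over the 12 h the log2 change was 2.75 (adjusted p = 1.24e-05, edgeR), a rise called in 27.4% of genes. From 1 h on it was called too (adjusted p = 3.52e-08, edgeR), as in 17.8% of genes. Over its 14 alternatives the adjusted p of IER3 ran from 2.67e-09 (DESeq2) to 0.378, the last from the first 5 libraries alone. Over the same step from 2 h to 8 h IER2 was 0.613-fold (0.560 to 0.671) and IER5 0.954-fold (0.878 to 1.04), neither of them 2-fold lower, where 1.65% of genes were. An antisense gene, IER3-AS1, overlaps the 3′ end of IER3 in RefSeq, and whether the counting used strand is not stated, so reads from the pair cannot be told apart.

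Cells that never saw 4sU differed from the end of the pulse in opposite directions for these genes. IER2 had 307 CPM without 4sU (287 to 327) against 43.6 at 0 h, 7.03-fold higher (6.23 to 7.94), and 36 of 9295 genes had a higher ratio. IER5 had 207 CPM (191 to 224) against 54.6, 3.78-fold higher (3.35 to 4.28). IER3 had 8.92 CPM (5.82 to 13.1, from 26 reads) against 28.1, 0.317-fold (0.203 to 0.476). Here 2 members were at least 2-fold higher, where 17% of genes were, and 1 was at least 2-fold lower, where 19.6% were. At 12 h of chase IER2 stood at 0.249-fold and IER5 at 0.394-fold the level without 4sU, and IER3 stood at 19.1-fold (13.0 to 29.3). At least 2-fold lower were 2 of 3 members and 9.66% of genes, and at least 2-fold higher 1 member and 20.1% of genes. The library without 4sU was also the shallowest, with 2916043 gene reads against 8301033 to 11224018 in the chase, and the part of wash, handling and depth in these ratios was not tested.

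Other genes with an IER symbol bear on the family. IER5L, named for its likeness to IER5, had 7.69 CPM at 0 h, then 10.2, 10.9, 17.6, 29.2, 16.2 and 15.3 CPM, and 27.8 without 4sU. Its highest chase library was that at 2 h, as for IER2 and IER5, 3.79-fold over 0 h (2.89 to 5.04), and the half-life of its labelled share was 0.95 ± 0.14 h. IER3IP1, which encodes an endoplasmic reticulum protein that binds IER3, had between 109 and 127 CPM in every chase library, with a half-life of 6.82 ± 1.09 h.

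Among other immediate-early transcription factors, the labelled share declined in 20 of the 20 tested, as in 95.3% of all genes. Their median half-life was 1.64 h over 19 resolved genes, against 2.72 h over all genes. At 40 min 9 of 18 were at least 2-fold above 0 h, where 0.269% of genes were. FOS, a subunit of AP-1, stood at 34.3-fold (90 reads at 0 h, 3384 at 40 min) and the repressor HES1 at 0.507-fold (45 and 25 reads). JUNB had the shortest half-life of the list, 1.08 ± 0.16 h, and ATF3 the longest, 2.59 ± 1.07 h. IER2, at 2.02-fold, and IER5, at 1.50-fold, stand beside these values. From 2 h to 8 h none of the 18 was at least 2-fold higher, where 4.42% of genes were, and 9 were at least 2-fold lower, where 1.65% were. Without 4sU, 4 were at least 2-fold higher than at 0 h and 6 at least 2-fold lower, against 17% and 19.6% of genes.

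In feedback and signalling genes of the immediate-early class the labelled share declined in 23 of 23, near the 95.3% of all genes. Their median half-life was 1.56 h over 21 resolved genes. Of 23 compared, 6 were at least 2-fold higher at 40 min, against 0.269% of genes. DUSP1, a MAP kinase phosphatase, stood highest at 46.5-fold (15 and 764 reads), and the anti-proliferative BTG2 lowest at 0.822-fold (595 and 536 reads). Among resolved genes GADD45B had the shortest half-life (1.20 ± 0.16 h) and SPRED2 the longest (2.08 ± 0.30 h). From 2 h to 8 h, 4 of the 23 were at least 2-fold higher, against 4.42% of genes. At least 2-fold lower were 7, against 1.65%. Without 4sU, 8 were at least 2-fold higher than at 0 h and 8 at least 2-fold lower, against 17% and 19.6% of genes. BTG2 was among those lower without 4sU (0.110-fold) and had 378 reads at 2 h and 1431 at 8 h.

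In early NF-kB target genes the labelled share declined in 15 of 15, again near the 95.3% of all genes. Their median half-life was 1.83 h, from 1.10 ± 0.12 h for the inhibitor NFKBIA to 4.45 ± 0.56 h for NFKBIB. Their totals rose over the 12 h in 12 of 16 (edgeR, adjusted p under 0.05), where 27.4% of all genes did, and 8 of 15 were at least 2-fold higher at 8 h than at 2 h, where 4.42% of genes were. Without 4sU, 12 of 15 were at least 2-fold lower than at 0 h, where 19.6% of genes were. In the same comparisons IER3 stood at 4.75-fold from 2 h to 8 h and at 0.317-fold without 4sU, and whether it is nearer to this list than to the others was not tested. At 40 min CXCL8, a neutrophil chemokine, stood at 2.64-fold (164 and 475 reads) and NFKB2 at 0.728-fold (227 and 181 reads).

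Among genes for proteins that IER products act on, the PP2A subunits, HSF1 and the ERK kinases, the labelled share declined in 14 of 14. That was near the share of all genes, 95.3%. Their median half-life was 3.43 h, from 1.96 ± 0.22 h for the regulatory subunit PPP2R2A to 10.3 ± 3.44 h for the ERK kinase MAPK3. None of the 14 compared was past 2-fold at 40 min, the range running from 0.760-fold for PPP2R1B to 1.29-fold for PPP2R5B. Over all genes compared, 0.269% were at least 2-fold higher and 3 of 9295 at least 2-fold lower. The absence therefore does not set this list apart.

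The course of total reads over the 8 libraries put each member beside different genes. On log2(CPM + 1), over the 6071 genes that averaged 200 reads or more, IER3 was most like BCL3 (Pearson r = 0.996), SH3BP1 (0.992), ANKRD52 (0.991), EXOC3 (0.991) and PLP2 (0.988). IER2 was most like RNF169 (0.977), RNF139 (0.958), BZW1 (0.951), DDX28 (0.947) and AK1 (0.947). For IER5 the list was ACBD3 (0.976), CEP350 (0.967), NT5C2 (0.944), BNIP2 (0.935) and HNRNPDL (0.933). Between members r was 0.922 for IER2 and IER5, -0.557 for IER2 and IER3 and -0.415 for IER3 and IER5. These values describe 8 libraries that all genes share. Among them is the library without 4sU, where IER2 and IER5 were at their highest and IER3 at its lowest. Correlations over the chase libraries alone were not calculated.

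The cells carried the markers of their label. All 15 monocyte and myeloid markers reached 1 CPM in at least 1 library, with a summed level between 2797 and 3685 CPM. Of 17 lymphoid, erythroid and epithelial markers 13 had a read and 4 reached 1 CPM. Their summed level was 3.74 to 12.7 CPM, and CD3E, CD2, HBB and KRT5 had no read.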

How the data were processed

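THP-1 SLAM-seq libraries (QuantSeq 3′ FWD, 1 per condition) were used as the authors deposited them, as raw counts of all reads and of labelled (nascent) reads in 64545 3′ UTR segments. Tools listed in the submitters' processing notes are Trim Galore 0.6.5 and, for base calls, bcl2fastq 2.17.1.14, and the human build is hg19. Reads of the S2 spike-in were not used here. How reads were aligned and counted, and how many T-to-C changes made a read labelled, is not given in the sources consulted.

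Segments were named by transcript identifier with GENCODE 29 (48045 of 56570 transcripts), 3056 on alternative or unplaced contigs were left out, and each gene took its most covered segment. Of genes with equal counts 1 was kept (85 left out). Segments of the chromosome 6 haplotypes held 0 reads.

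Labelled counts (mean total at least 50, at least 20 labelled reads) and total counts (mean at least 20, TMM) were fitted against hours in edgeR 4.0.16 (R 4.3.3) over 7 chase libraries, with Benjamini-Hochberg adjustment over all genes and calls under 0.05. Half-lives are binomial maximum-likelihood fits (SciPy 1.17.1) of background plus an exponential, the background being the share without 4sU with 100 prior reads. Standard errors were widened where scatter exceeded binomial error. A half-life was resolved with a called decline, at least 10 fitted excess reads at 0 h, a log rate known to a standard error of 0.5 or less and a value from 0.25 to 24 h. Intervals between libraries are exact, at 95%. A count of 0 is given the limit of 3 counts. Both kinds of fit were tested on simulated data.

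Named genes were the 3 members, the relatives by symbol, the 5 most correlated genes of each member, and from each list the genes at the ends of half-life and of the 40 min fold. Members and lists were chosen with earlier results of these data known. Alternatives were other normalizations, filters, windows, DESeq2 1.42.0 and leaving out each library.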

Additional observations from a re-analysis of the deposited data

How the results depend on the processing

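The decline of the labelled share kept its direction and its call in all 39 alternatives for IER2, IER3 and IER5. Leaving out each chase library moved its slope between -0.84 and -0.52 log2 per hour for IER2, -1.06 and -0.96 for IER3 and -0.76 and -0.57 for IER5. The half-life then ran from 1.27 to 1.51 h for IER2, 0.90 to 1.05 h for IER3 and 1.37 to 1.57 h for IER5. Fitted to labelled CPM it was 1.86 h for IER2, 0.83 h for IER3 and 1.90 h for IER5, and over 1 to 12 h alone it was 0.81 h for IER3. The other 35 alternatives to the half-lives stayed within 1 SE.

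The slope of total level depended on the window for every member. Over 0 to 2 h it was 0.56 log2 per hour for IER2, -0.21 for IER3 and 0.50 for IER5. Over 1 to 12 h it was -0.064 for IER2 and -0.050 for IER5. By construction these windows use fewer libraries. Leaving out each chase library gave slopes of -0.04 to -0.01 for IER2, 0.22 to 0.26 for IER3 and -0.01 to 0.05 for IER5. TMM scaling lowered the median gene's change over 12 h by 0.16 log2 relative to library sums. With TMM-scaled CPM the ratio of 8 h to 2 h was 0.559 for IER2 and 0.871 for IER5. No paired analysis was possible because each condition has 1 library and the labels carry no replicate number. Depth limits the late labelled counts, which were 0 to 13 reads per member at 8 and 12 h, and the IER3 level without 4sU, which rests on 26 reads.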

Other observations

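Near IER3 on chromosome 6, FLOT1, which encodes the membrane scaffold flotillin-1 and was named after its values were seen, had 212 reads at 2 h, 668 at 8 h and 604 at 12 h (2.52-fold from 2 h to 8 h in CPM). Its segment begins 15490 bases from that of IER3 on hg19, on the same strand. The other 7 genes measured within 100 kb of IER3 lay between 0.731-fold (TUBB) and 1.53-fold (ATAT1) over the same step. Around IER2, 6 genes within that distance were 0.879-fold to 1.30-fold at 40 min over 0 h, where IER2 was 2.02-fold. Around IER5 the single gene measured, MR1, was 0.909-fold, where IER5 was 1.50-fold.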
